A study of Homo sapiens with 12 samples.

Results

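The genes described here belong to the unfolded protein response and the folding machinery of the endoplasmic reticulum (ER), measured in H929 cells. They were taken from a given list of 39 genes and found through the gene symbols that the platform annotation gives to each probe set. Of the 39 genes, 36 had at least 1 tested probe set of their own, among 15587 genes tested in all. H929 is a human myeloma cell line, a tumour of antibody-secreting plasma cells. RNA was hybridised to Affymetrix U133 Plus 2.0 arrays, 1 array for each sample, in 4 groups of 3 samples. Untreated cells were compared with cells given CHR-3996 (an inhibitor of histone deacetylases, 250 nM), tosedostat (CHR-2797, an inhibitor of aminopeptidases, 1 µM) or both at these doses, each for 24 hours. The labels call the samples biological replicates, and because no source says that they were grown as separate cultures, each p-value below speaks only for the spread among these arrays.

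Plasma cells fold and export immunoglobulin in large amounts, and their ER is built for that load. When unfolded protein accumulates, chaperones are drawn away from the sensors PERK (EIF2AK3), IRE1 (ERN1) and ATF6 in the ER membrane. PERK then slows translation and favours the transcription factors ATF4 and CHOP, IRE1 splices the messenger RNA of XBP1, and ATF6 is cut to release a transcription factor. The response raises chaperones and oxidative folding enzymes, and it also raises the factors that send misfolded protein back to the cytosol for degradation.

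The DNA in front of these genes is where that response is read, so the RefSeq windows from 250 bases before to 50 bases after each start (build GRCh38.p14) were searched on both strands. Of the 39 genes, 36 had 44 windows in the table. DERL1, DERL3 and PDIA3 had none. The ER stress response element ERSE (CCAAT and CCACG 9 bases apart) was present in 27 of 35116 windows of all genes (0.0769%) and in 9 of the 44 (20.5%), of 7 genes: HSPA5, HSP90B1, CALR, CANX, CRELD2, PDIA6 and ERO1B. Overlapping windows of CANX that hold the same site were each counted among the 9, and overlapping windows were likewise counted apart among all genes. ERSE-II (ATTGG and CCACG 1 base apart) was present in 19 windows of all genes (0.0541%) and in 3 of the 44 (6.82%), those of SDF2L1, HYOU1 and HERPUD1. The ATF6 and XBP1 element TGACGTGG lay in the windows of HYOU1 and TXNDC5 (0.729% of all windows), the C/EBP-ATF motif TGATGNAAN in those of CREB3L2 and HERPUD1 (3.61%), and the cAMP element TGACGTCA in those of CREB3L2 and PPP1R15A (1.85%). ATTGG is CCAAT on the opposite strand, and in HYOU1 the TGACGTGG at -188 overlaps an ERSE-II at -185. The list was drawn up from ER stress and folding genes. A high share of ER stress elements describes that list and is not a test. A match here is a match of letters and not a measured binding site. The 6 windows that follow show such matches in front of a gene that was not called (HSPA5), genes that fell (SDF2L1 and CRELD2) and genes that rose (ERO1B, HERPUD1 and PPP1R15A) with CHR-3996, with the fixed letters of each match in capitals. Each is printed 5′ to 3′ on the strand of its gene.
HSPA5, chr9:125241294-125241593, minus strand, ERSE at -66: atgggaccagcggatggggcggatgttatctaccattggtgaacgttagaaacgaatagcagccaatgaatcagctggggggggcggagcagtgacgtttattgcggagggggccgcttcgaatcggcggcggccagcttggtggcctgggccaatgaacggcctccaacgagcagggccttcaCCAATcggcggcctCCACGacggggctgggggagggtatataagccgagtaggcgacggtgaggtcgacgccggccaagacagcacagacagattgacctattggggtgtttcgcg
SDF2L1, chr22:21642052-21642351, plus strand, ERSE-II on the opposite strand at -188: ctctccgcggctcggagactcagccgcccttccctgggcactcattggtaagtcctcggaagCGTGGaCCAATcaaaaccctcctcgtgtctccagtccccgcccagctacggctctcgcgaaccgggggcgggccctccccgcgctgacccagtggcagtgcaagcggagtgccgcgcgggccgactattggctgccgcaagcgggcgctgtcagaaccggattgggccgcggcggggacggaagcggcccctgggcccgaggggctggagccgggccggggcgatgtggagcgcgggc
CRELD2, chr22:49918384-49918683, plus strand, ERSE on the opposite strand at -80: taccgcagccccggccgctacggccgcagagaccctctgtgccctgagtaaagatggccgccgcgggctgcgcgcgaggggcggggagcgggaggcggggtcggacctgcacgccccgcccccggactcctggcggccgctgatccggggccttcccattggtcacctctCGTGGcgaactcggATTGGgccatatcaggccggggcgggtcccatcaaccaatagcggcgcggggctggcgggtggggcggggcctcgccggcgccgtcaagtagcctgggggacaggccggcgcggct
ERO1B, chr1:236281909-236282208, minus strand, ERSE on the opposite strand at -243: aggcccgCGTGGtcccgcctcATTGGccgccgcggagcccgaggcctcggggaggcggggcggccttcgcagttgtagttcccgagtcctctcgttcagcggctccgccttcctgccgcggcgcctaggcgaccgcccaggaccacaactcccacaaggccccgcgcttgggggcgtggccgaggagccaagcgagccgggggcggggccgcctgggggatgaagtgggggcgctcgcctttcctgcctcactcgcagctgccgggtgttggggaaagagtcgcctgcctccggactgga
HERPUD1, chr16:56931892-56932191, plus strand, ERSE-II at -117 and the C/EBP-ATF motif on the opposite strand at -177: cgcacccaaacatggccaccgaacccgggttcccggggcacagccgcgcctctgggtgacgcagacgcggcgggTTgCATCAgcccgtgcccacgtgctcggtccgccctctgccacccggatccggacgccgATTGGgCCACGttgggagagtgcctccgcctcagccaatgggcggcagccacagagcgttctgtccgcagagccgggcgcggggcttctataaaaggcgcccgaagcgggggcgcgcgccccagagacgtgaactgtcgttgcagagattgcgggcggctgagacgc
PPP1R15A, chr19:48872171-48872470, plus strand, cAMP element at -58: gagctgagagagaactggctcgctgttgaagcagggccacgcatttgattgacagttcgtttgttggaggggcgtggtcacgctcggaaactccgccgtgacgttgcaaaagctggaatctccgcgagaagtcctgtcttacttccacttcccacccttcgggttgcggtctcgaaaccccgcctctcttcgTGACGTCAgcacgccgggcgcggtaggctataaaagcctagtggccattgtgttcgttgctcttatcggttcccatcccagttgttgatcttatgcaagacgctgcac

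Expression is given as deposited, in log2 units, where a difference of 1 is a 2-fold change. A gene was represented by the brightest of its tested probe sets, and it was called higher or lower at a Benjamini-Hochberg adjusted p under 0.05 from limma, fitted to all 12 arrays and adjusted over all 36395 probe sets tested. Replicate arrays correlated at r of 0.978 to 0.983, and the number of arrays limits the precision. The median log2 value of an array was 5.04 ± 0.04 (SD, n = 3) in untreated cells and 5.05 ± 0.01 with tosedostat, against 5.26 ± 0.03 with CHR-3996 and 5.29 ± 0.02 with the combination. The actin probe sets at the 3′ and 5′ ends differed by 2.14 ± 0.17 (SD, n = 3) in log2 value in untreated cells, by 1.59 ± 0.17 with CHR-3996, by 2.09 ± 0.11 with tosedostat and by 1.24 ± 0.15 with the combination. All 10 plasma cell markers measured lay above the 40th percentile on every array, and their summed log2 value ranged from 119.48 to 120.43 in untreated cells, from 110.88 to 116.86 with CHR-3996, from 120.35 to 121.81 with tosedostat and from 115.07 to 115.64 with the combination. XBP1 and MZB1 are on that marker list and also stand in pathway lists below. Of the other cell types, 0 of 2 epithelial markers lay above it on every array, against 1 of 3 for B cells, 2 of 3 for T cells, 1 of 3 for monocytes, 1 of 1 for erythroid cells, 2 of 3 for stromal and 1 of 3 for endothelial cells. The erythroid marker HBB ranged from 5.71 to 6.94 in untreated cells, from 7.59 to 8.46 with CHR-3996, from 5.80 to 6.84 with tosedostat and from 7.59 to 8.74 with the combination. The part that array medians, the actin difference and the marker levels have in the results below was not tested. In bulk RNA, fewer cells with a transcript and less of it per cell cannot be told apart.

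With CHR-3996 alone, transcripts of the sensors rose, while those of most chaperones that changed fell. The activity of PERK, IRE1 and ATF6 was not measured. Of the 36 genes, 11 were called higher and 11 lower, where 31.7% of all genes tested were called higher and 18.0% lower. Their median log2 fold change was -0.09, and that of all genes was 0.11. Of the 6 sensors and signalling genes 5 rose and 0 fell, with a median of 0.70. Of 12 chaperones and co-chaperones 1 rose and 7 fell, with a median of -0.33. Of 7 isomerases and oxidases 1 rose and 2 fell, of 2 translocon genes SSR1 fell, and of 9 ER degradation factors 4 rose and 1 fell.

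**Figure D1:**
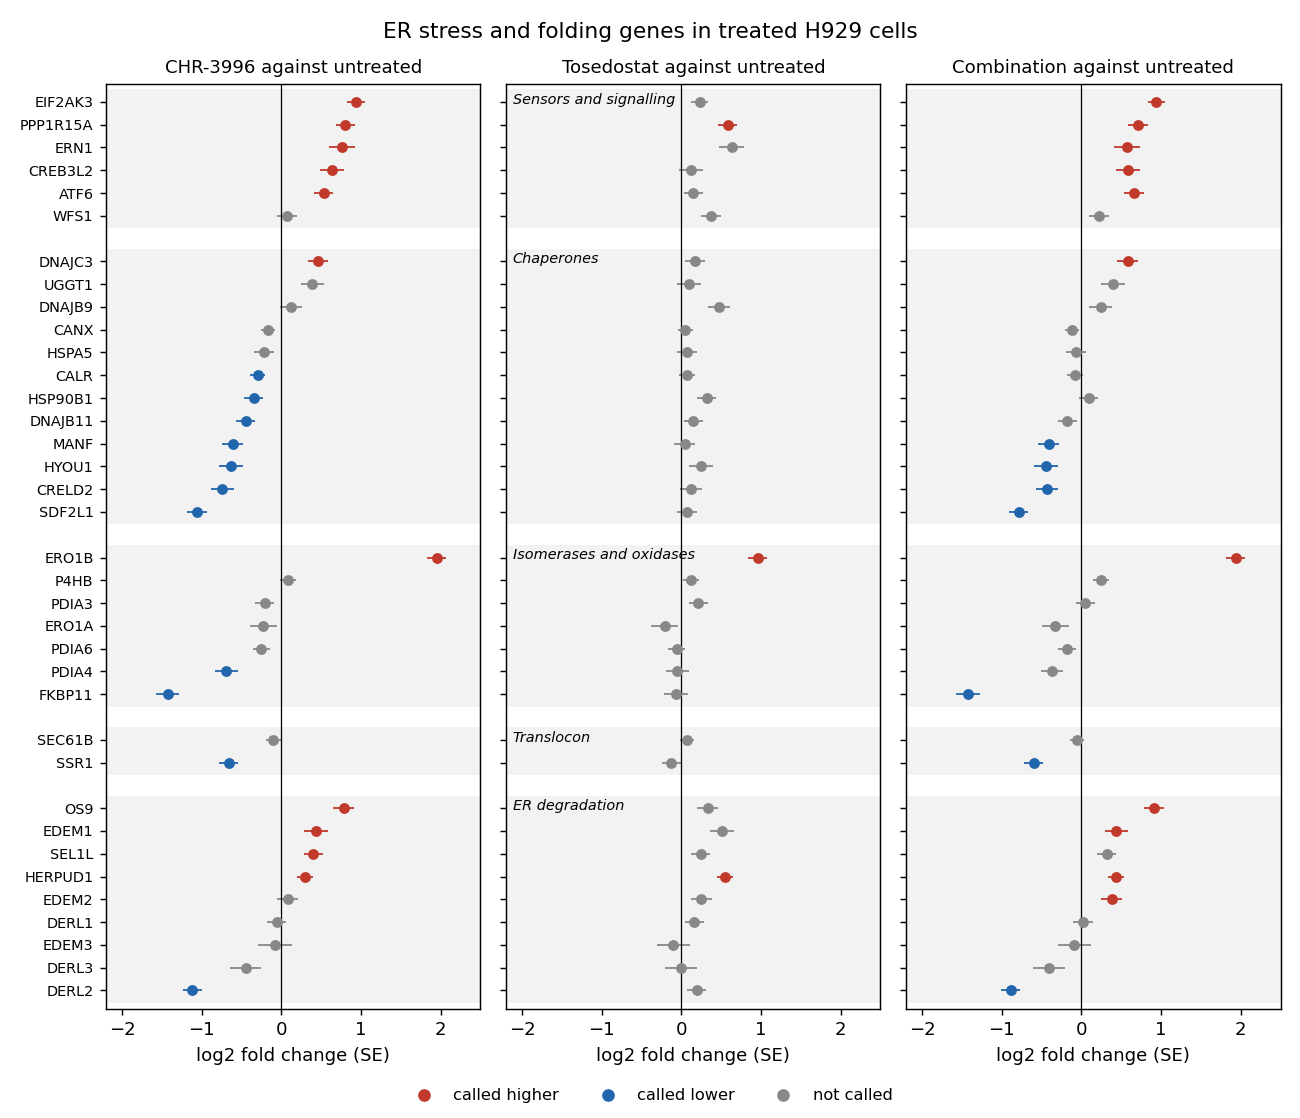
Log2 fold change (x axis, with its standard error from limma) of the 36 genes in CHR-3996, tosedostat and combination samples, each against the same 3 untreated samples, grouped by role. Red marks genes called higher and blue marks genes called lower: 5 of 6 sensors and signalling genes are red with CHR-3996 and with the combination, and tosedostat has 3 red points and no blue ones.

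EIF2AK3, the gene of PERK, had log2 values of 12.06, 12.09 and 11.96 in untreated cells, 12.88, 13.09 and 12.96 with CHR-3996, 12.39, 12.25 and 12.16 with tosedostat, and 13.12, 12.90 and 12.89 with the combination. The CHR-3996 and combination samples were all above the untreated and tosedostat samples. The log2 fold change was 0.94 (standard error 0.11, adjusted p = 4.66e-05 from limma) with CHR-3996 and 0.94 (adjusted p = 4.90e-05 from limma) with the combination, and with tosedostat it was 0.23 and not called (adjusted p = 0.347). This gene has 1 tested probe set.

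ERN1, the gene of IRE1, which is both a kinase and an endoribonuclease, gave 10.66, 10.79 and 10.71 in untreated cells, 11.18, 11.74 and 11.52 with CHR-3996, 11.42, 11.43 and 11.20 with tosedostat, and 11.51, 11.26 and 11.12 with the combination. All 9 treated samples were above the 3 untreated samples, and the treated groups overlapped one another. The rise with CHR-3996 was 0.76 (standard error 0.16, adjusted p = 0.00207 from limma) and that with the combination was 0.57 (adjusted p = 0.0108). Its log2 fold change of 0.63 with tosedostat missed the threshold (adjusted p = 0.0546 from limma) and was called once the replicate number was taken as a block. The call with the combination was lost with equal array medians. A second probe set of ERN1 was as bright (mean log2 value 11.21 for both) and gave other sizes. It changed by 0.54 (adjusted p = 0.102 by limma) with CHR-3996, by 0.98 (adjusted p = 0.0562) with tosedostat and by 1.34 (adjusted p = 0.000987) with the combination, the last a call higher. The third, dimmer probe set was called in none of these, at 0.25 with CHR-3996.

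ATF6 itself, the sensor that is also a transcription factor precursor, had values of 10.08, 10.24 and 10.15 in untreated cells, 10.44, 10.85 and 10.77 with CHR-3996, 10.25, 10.32 and 10.35 with tosedostat, and 10.85, 10.82 and 10.78 with the combination. The CHR-3996 and combination samples again lay above all untreated and tosedostat samples. The rise was 0.53 (standard error 0.12, adjusted p = 0.0037 from limma) with CHR-3996 and 0.66 (adjusted p = 0.000877 from limma) with the combination. All 4 probe sets of ATF6 were called higher with CHR-3996, between 0.53 and 1.48. When every array was set to the same median, the value of the brightest one fell to 0.31 and was no longer called.

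PPP1R15A encodes GADD34, the phosphatase subunit that restores translation after PERK has slowed it. Its values were 7.53, 7.77 and 7.60 in untreated cells, 8.27, 8.59 and 8.45 with CHR-3996, 8.05, 8.25 and 8.33 with tosedostat, and 8.33, 8.37 and 8.32 with the combination. No treated sample overlapped the untreated ones. The rise by limma was 0.80 (standard error 0.12, adjusted p = 0.000258) with CHR-3996, 0.58 (adjusted p = 0.0271) with tosedostat and 0.71 (adjusted p = 0.000611) with the combination.

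CREB3L2, a membrane-bound transcription factor of the ATF6 type, had values of 11.56, 11.51 and 11.23 in untreated cells, 12.02, 12.16 and 12.01 with CHR-3996, 11.66, 11.61 and 11.38 with tosedostat, and 12.29, 11.89 and 11.89 with the combination. It rose by 0.63 (adjusted p = 0.00408 from limma) with CHR-3996 and by 0.59 (adjusted p = 0.00599) with the combination, with no overlap with untreated samples. The call with the combination was lost with equal array medians. WFS1, which encodes wolframin of the ER membrane, was the one gene of the group with no call in any contrast. Its values were 8.99, 9.01 and 8.67 in untreated cells, 9.07, 8.97 and 8.82 with CHR-3996, 9.20, 9.45 and 9.13 with tosedostat, and 9.11, 9.13 and 9.10 with the combination. The CHR-3996 samples overlapped the untreated ones, and the tosedostat and combination samples lay just above them.

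**Figure D2:**
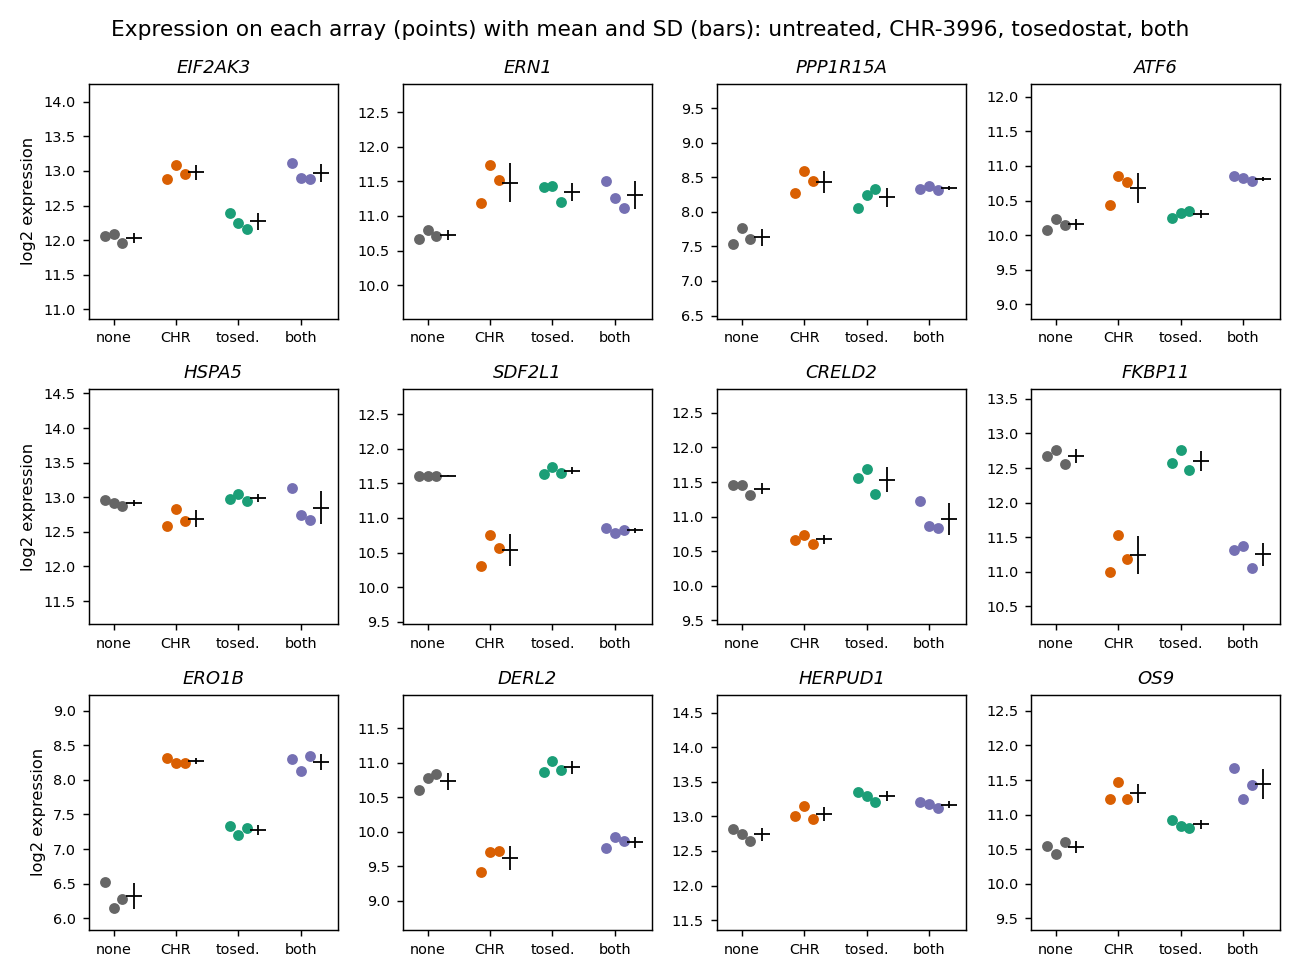
Log2 expression (y axis, each panel spanning the same range of 3.4 units) on each array (points) with the mean and SD of 3 samples (bars), for 12 genes in untreated cells (none), CHR-3996 (CHR), tosedostat (tosed.) and the combination (both). EIF2AK3 and OS9 sit higher and SDF2L1, FKBP11 and DERL2 lower in the CHR and both groups, while the points of HSPA5 lie between 12.59 and 13.13 in the 4 groups.

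Among the chaperones, SDF2L1, a partner of the BiP chaperone complex, fell most. Its values were 11.60, 11.61 and 11.61 in untreated cells, 10.31, 10.76 and 10.56 with CHR-3996, 11.64, 11.74 and 11.65 with tosedostat, and 10.86, 10.78 and 10.82 with the combination. Every CHR-3996 and combination sample was below every untreated and tosedostat sample. The log2 fold change was -1.06 (standard error 0.12, adjusted p = 2.72e-05 from limma) with CHR-3996, 0.07 (adjusted p = 0.844) with tosedostat and -0.79 (adjusted p = 0.000245) with the combination.

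The other chaperones called lower with CHR-3996 moved less. CRELD2, an ER resident protein induced by ER stress, changed by -0.74 (adjusted p = 0.00105 from limma), HYOU1, a large ATP-binding chaperone, by -0.63 (adjusted p = 0.00546), and MANF, a small secreted ER protein, by -0.61 (adjusted p = 0.00217). DNAJB11, a co-chaperone of BiP, changed by -0.45 (adjusted p = 0.00985), HSP90B1, which encodes GRP94, by -0.35 (adjusted p = 0.0367), and calreticulin (CALR), a lectin chaperone of glycoproteins, by -0.30 (adjusted p = 0.0256). With the combination CRELD2, HYOU1 and MANF were called lower at -0.43, -0.44 and -0.41, while DNAJB11 (-0.18), HSP90B1 (0.09) and CALR (-0.08) were not called. The HSP90B1 call with CHR-3996 was lost without any one of the untreated replicates or without CHR-3996 replicate 1 or 3, and that of CALR without untreated replicate 1 or 3 or CHR-3996 replicate 2, and both were lost with no filter and with the compared groups alone. HSP90B1 also has a brighter probe set, set aside because the annotation shares it with MIR3652, which changed by -0.09 (adjusted p = 0.493 by limma) with CHR-3996. Another shared one changed by -0.43 (adjusted p = 0.0744). A dimmer probe set of HSP90B1 alone was called lower, at -0.93 (adjusted p = 8.36e-05 by limma) with CHR-3996 and at -0.48 (adjusted p = 0.00686) with the combination. With the combination, the calls of CRELD2 and MANF were lost without untreated replicate 1 or 2 or combination replicate 2 or 3, and that of HYOU1 without untreated replicate 1 or 3 or combination replicate 2 or 3. DNAJC3, which encodes the PERK inhibitor p58IPK, was the only chaperone gene called higher, by 0.46 (adjusted p = 0.015 from limma) with CHR-3996 and by 0.58 (adjusted p = 0.00448) with the combination. Both calls were lost once array medians were made equal, at 0.25 and 0.33.

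HSPA5 encodes BiP, the chaperone that holds the sensors inactive, and its 2 probe sets went apart. The brighter one gave 12.96, 12.92 and 12.87 in untreated cells, 12.59, 12.83 and 12.66 with CHR-3996, 12.97, 13.05 and 12.94 with tosedostat, and 13.13, 12.75 and 12.67 with the combination. Its log2 fold change was -0.22 (standard error 0.13, adjusted p = 0.192 from limma) with CHR-3996, although the CHR-3996 samples were all below the untreated ones. The dimmer one gave 6.89, 6.81 and 6.33 in untreated cells, 8.13, 7.96 and 7.91 with CHR-3996, 6.83, 6.47 and 6.49 with tosedostat, and 8.13, 7.49 and 7.67 with the combination. This dimmer probe set was called higher, by 1.32 (adjusted p = 0.000221 from limma) with CHR-3996 and by 1.08 (adjusted p = 0.00088) with the combination. The mean of both was called higher with CHR-3996, at 0.55, so the direction for HSPA5 depends on the probe set. These values of HSPA5 were chosen for display after they had been seen.

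CANX, UGGT1 and DNAJB9, like HSPA5, had no call by their brightest probe set in any of the 6 contrasts. Calnexin (CANX), the membrane-bound partner of calreticulin, changed by -0.17 with CHR-3996, where 2 of its 4 tested probe sets were called lower, at -0.39 and -0.71. UGGT1, which tests glycoproteins for correct folding, changed by 0.39 (adjusted p = 0.0591 by limma), while another of its 5 probe sets was called lower at -0.69. DNAJB9, an IRE1 target that acts with BiP, changed by 0.12 with CHR-3996 and by 0.47 (adjusted p = 0.111) with tosedostat, where another of its 3 probe sets was called higher at 0.74 (adjusted p = 0.0465).

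ERO1B, an oxidase that renews the disulfide-forming enzymes, had the largest rise of the 36 genes with each treatment. It gave 6.53, 6.15 and 6.28 in untreated cells, 8.32, 8.24 and 8.25 with CHR-3996, 7.34, 7.20 and 7.30 with tosedostat, and 8.30, 8.13 and 8.35 with the combination. The tosedostat samples lay between the untreated samples and the other treated ones, with no overlap on either side, and the CHR-3996 and combination samples overlapped. The rise was 1.95 (standard error 0.12, adjusted p = 5.28e-07 from limma) with CHR-3996, 0.96 (adjusted p = 0.00175) with tosedostat and 1.94 (adjusted p = 4.66e-07) with the combination. Both probe sets of ERO1B were called higher with CHR-3996 and with the combination, and only the brighter one with tosedostat. Its paralogue ERO1A changed by -0.23 (adjusted p = 0.285) with CHR-3996, and 1 of its 3 probe sets was called lower.

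FKBP11, a prolyl isomerase of secretory cells, had the largest fall. Its values were 12.68, 12.76 and 12.56 in untreated cells, 10.99, 11.53 and 11.19 with CHR-3996, 12.57, 12.76 and 12.47 with tosedostat, and 11.32, 11.37 and 11.06 with the combination. The tosedostat samples overlapped the untreated ones, and every CHR-3996 and combination sample was below both of those groups. The log2 fold change was -1.43 (standard error 0.15, adjusted p = 1.98e-05 from limma) with CHR-3996, -0.07 (adjusted p = 0.893) with tosedostat and -1.42 (adjusted p = 2.07e-05) with the combination. All 3 probe sets of FKBP11 were called lower with CHR-3996.

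Of the disulfide isomerases, PDIA4 was called lower with CHR-3996 at -0.69 (adjusted p = 0.00196 from limma) and not with the combination at -0.37 (adjusted p = 0.0504), where it was called with either other scaling and with the 60th percentile filter. PDIA3, the partner of the lectin chaperones, PDIA6 and P4HB had no call by their brightest probe set in any contrast, with log2 fold changes of -0.21, -0.25 and 0.08 with CHR-3996, although a dimmer probe set of PDIA3 was called higher at 0.45. PDIA5 and TXNDC5 each have a single probe set that the annotation also gives to another gene, so they were left out of the counts. The probe set shared by PDIA5 and MIR7110 was called lower with CHR-3996 at -0.71 (adjusted p = 0.000355 from limma), and the one shared by TXNDC5 and the readthrough gene BLOC1S5-TXNDC5 changed by -0.03.

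At the translocon, the channel through which new proteins enter the ER, SEC61B had no call in any contrast and SSR1 fell. SSR1, which encodes the alpha subunit of the translocon-associated protein complex, changed by -0.66 (adjusted p = 0.00094 by limma) with CHR-3996 and by -0.60 (adjusted p = 0.0017) with the combination. Of its 6 probe sets 4 were called lower with CHR-3996, down to -1.72, and the other 2 were not called, at 0.22 and 0.26.

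The ER degradation factors divided. DERL2, a membrane protein of the retrotranslocation channel, gave 10.60, 10.78 and 10.83 in untreated cells, 9.42, 9.71 and 9.72 with CHR-3996, 10.86, 11.02 and 10.90 with tosedostat, and 9.76, 9.92 and 9.86 with the combination. It changed by -1.12 (standard error 0.12, adjusted p = 1.96e-05 from limma) with CHR-3996 and by -0.89 (adjusted p = 0.000107) with the combination, with no overlap with untreated or tosedostat samples. Its other probe set was not called, at 0.22 with CHR-3996. DERL1 was not called by its brightest probe set, at -0.06 with CHR-3996. Another of its probe sets was called lower, at -0.67 (adjusted p = 0.00196 by limma) with CHR-3996 and at -0.45 (adjusted p = 0.0193) with the combination. The remaining tested one was not called, at -0.20 with CHR-3996. DERL3 has 3 probe sets, and the one that stands for the gene changed by -0.45 (adjusted p = 0.0886 by limma) while another was called lower at -2.39 (adjusted p = 6.80e-07). The values of that second probe set were 9.86, 9.72 and 9.74 in untreated cells and 7.16, 7.69 and 7.30 with CHR-3996.

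OS9, a lectin that marks misfolded glycoproteins for degradation, rose by 0.78 (adjusted p = 0.000535 from limma) with CHR-3996 and by 0.91 (adjusted p = 0.000173) with the combination. EDEM1, which trims mannose from misfolded glycoproteins, rose by 0.43 (adjusted p = 0.0352) and 0.44 (adjusted p = 0.0332), and HERPUD1, a scaffold of the degradation complex, by 0.30 (adjusted p = 0.0311) and 0.43 (adjusted p = 0.0045). SEL1L, the adaptor of the ubiquitin ligase SYVN1, rose by 0.40 (adjusted p = 0.0215) with CHR-3996 and had a value of 0.32 (adjusted p = 0.0544) with the combination. All 4 probe sets of SEL1L were called higher with CHR-3996, the largest change being 2.36. With the combination its other probe sets were called higher, at 0.53 (adjusted p = 0.0147 by limma), 0.66 (adjusted p = 0.00186) and 2.14 (adjusted p = 3.83e-05). The SEL1L value of 0.32 with the combination was called after quantile normalisation and with the 60th percentile filter. With equal array medians the calls of EDEM1 and HERPUD1 were lost with both CHR-3996 and the combination, and that of SEL1L with CHR-3996. With CHR-3996, the call of EDEM1 was lost without untreated replicate 1 or 3 or CHR-3996 replicate 2 or 3, that of HERPUD1 without untreated replicate 2 or 3 or CHR-3996 replicate 2, and that of SEL1L without untreated replicate 2 or 3 or CHR-3996 replicate 2 or 3. With the combination, that of EDEM1 was lost without untreated replicate 1 or 3 or combination replicate 1 or 2. EDEM2 had a value of 0.38 (adjusted p = 0.0402) with the combination and 0.08 with CHR-3996, and the difference between these groups, 0.29, was not called (adjusted p = 0.479). Its call with the combination was lost under both other scalings, with no filter, with the compared groups alone, and without any one of the untreated replicates, CHR-3996 replicate 3, tosedostat replicate 2, or combination replicate 2 or 3. EDEM3 had no call in any contrast. SYVN1 has only a probe set shared with MIR6751, which changed by 0.26 with CHR-3996 and was not called.

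**Figure D3:**
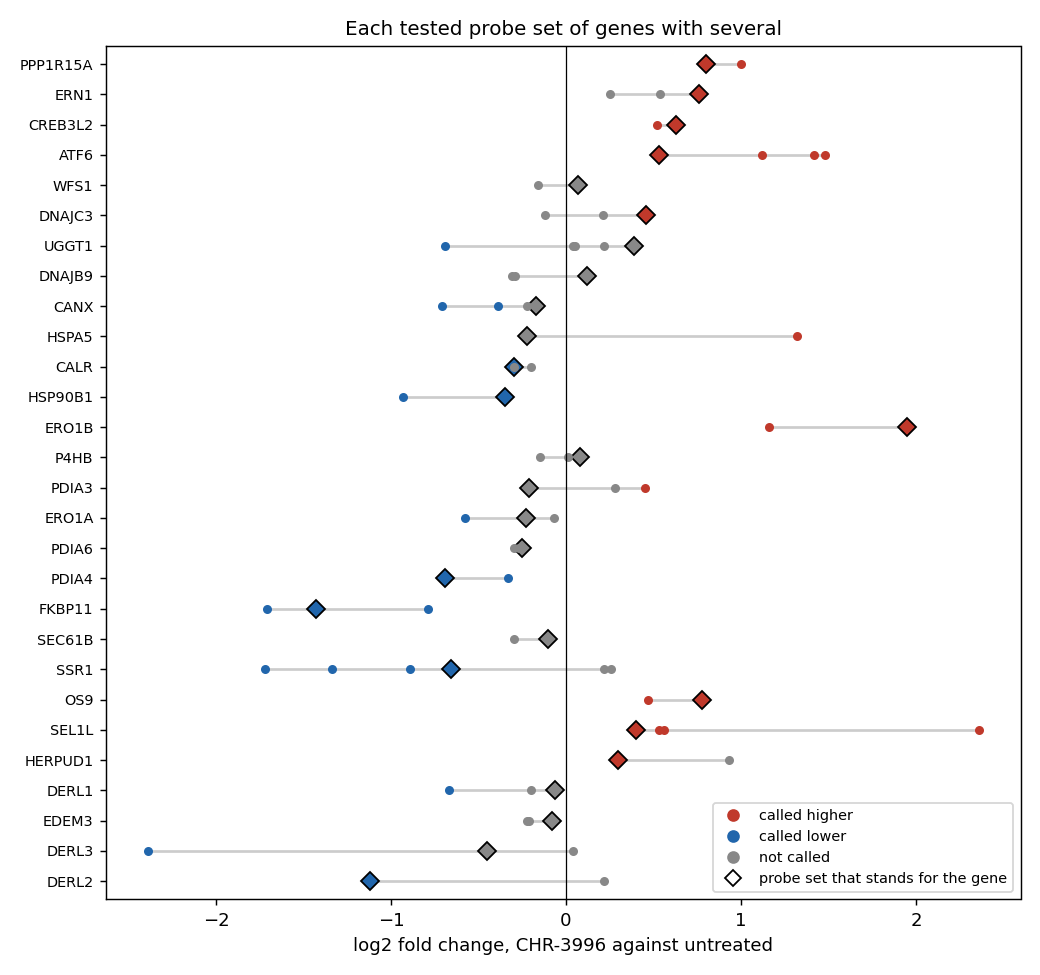
Log2 fold change with CHR-3996 against untreated cells (x axis) of every tested probe set of the 28 genes that have several, with a diamond for the brightest one, which stands for its gene. Red marks a call higher, blue a call lower and grey no call: HSPA5 spans -0.22 to 1.32, SEL1L 0.40 to 2.36 and DERL3 -2.39 to 0.04.

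Probe sets of a gene were then set side by side. With CHR-3996, of the 28 genes with several tested probe sets 6 had all of them called higher, 3 all called lower, 6 none called, and 0 had calls in both directions. In the other 13 genes some probe sets were called and some were not. The median gap between the highest and lowest log2 fold change of a gene was 0.56, and it was over 1 in 6 genes. Of all 91 tested probe sets 24 were called higher and 24 lower. The probe sets that stand for HSP90B1, CALR, OS9 and DERL3, and the dimmer one of HSP90B1 alone, end in _x_at, so their probes may match other transcripts too.

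The direction of these groups was also read under other scalings of the arrays. Over all genes the median log2 fold change with CHR-3996 was 0.11 as deposited, -0.08 after quantile normalisation and -0.11 with equal array medians, and the share of called genes that were higher moved from 63.8% to 49.4% and 46.7%. For the combination these medians were 0.15, -0.10 and -0.10. The sensors and signalling genes kept 5 calls higher and 0 lower with CHR-3996 after quantile normalisation and had 4 and 0 with equal medians. With the combination they had 5 and 0, then 3 and 0. The chaperones had 1 call higher and 7 lower after quantile normalisation and 0 and 9 with equal medians. The ER degradation factors turned from 4 higher and 1 lower as deposited to 1 higher and 2 lower with equal medians. For all 36 genes the 11 higher and 11 lower calls with CHR-3996 became 6 and 18 with equal medians. Of the 15587 genes tested, 7751 were called with CHR-3996 as deposited and 8040 with equal medians.

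**Figure D4:**
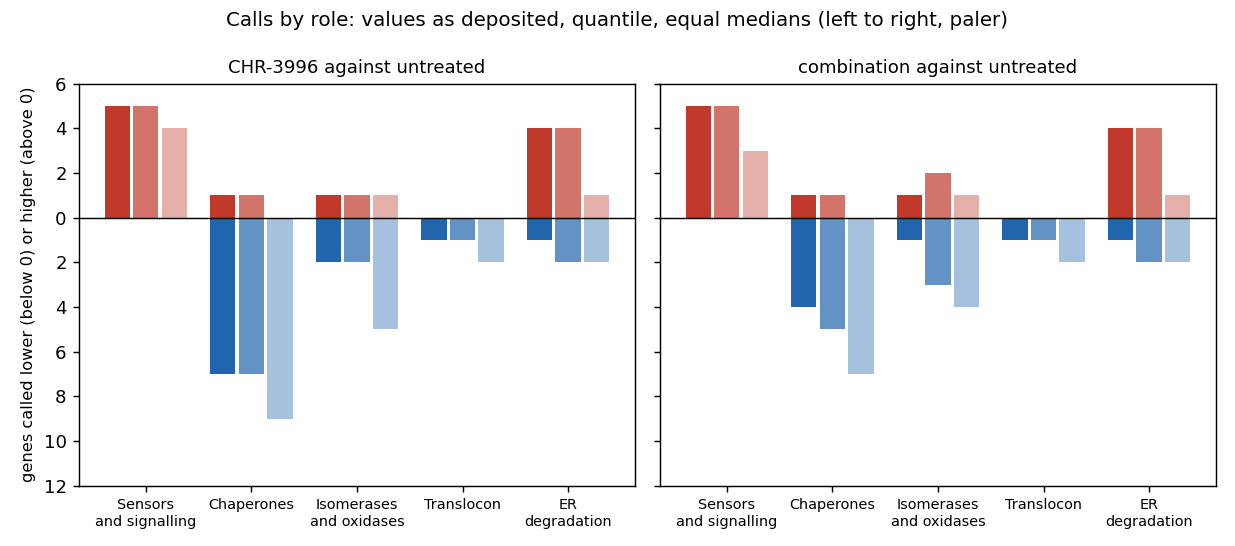
Number of genes called higher (red, above 0) or lower (blue, below 0) in each role with CHR-3996 (left) and with the combination (right), for values as deposited, quantile normalised and set to equal array medians, from left to right in each group of bars. The sensors and signalling genes have no lower call in any setting, and ER degradation has 4 higher calls as deposited and 1 with equal medians.

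Tosedostat alone moved few of these genes. Of the 36 genes 3 were called higher and 0 lower by limma, against 4.25% and 0.545% of all genes tested, and 9 had an unadjusted p under 0.05. The median log2 fold change was 0.15, against 0.04 over all genes. The 3 genes were ERO1B at 0.96, PPP1R15A at 0.58 and HERPUD1 at 0.55 (adjusted p = 0.0141 from limma), and in each all 3 tosedostat samples were above all 3 untreated samples. The HERPUD1 values were 12.82, 12.75 and 12.65 in untreated cells, 13.01, 13.15 and 12.96 with CHR-3996, 13.35, 13.30 and 13.21 with tosedostat, and 13.21, 13.18 and 13.12 with the combination. None of the 12 chaperones was called with tosedostat, and their log2 fold changes ranged from 0.04 to 0.47. With quantile normalisation 6 genes were called higher, where 802 of the 15587 genes tested were called, 78.3% of them higher. The count of 3 fell to 1 without untreated replicate 3 or without tosedostat replicate 2, and rose to 5 without CHR-3996 replicate 2. The PPP1R15A call was lost without untreated replicate 1 or 3 or tosedostat replicate 2 or 3, and with no filter. The HERPUD1 call was lost without untreated replicate 3 or tosedostat replicate 1 or 2. Both were lost with the compared groups alone. The other probe set of PPP1R15A was called higher, at 0.95 (adjusted p = 0.00804 by limma). Those of ERO1B and HERPUD1, both dimmer, were not called, at 0.76 (adjusted p = 0.103 by limma) and 1.44 (adjusted p = 0.0605).

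With the combination against untreated cells, 11 of the 36 genes were called higher and 7 lower, where 34.6% and 15.9% of all genes were. The median log2 fold change was 0.04, against 0.15 over all genes. By role, 5 sensors and signalling genes rose and 0 fell, 1 chaperone rose and 4 fell, 1 isomerase or oxidase rose and 1 fell, 1 translocon gene fell, and 4 ER degradation factors rose and 1 fell. The contrasts of CHR-3996, tosedostat and the combination with untreated cells share the same 3 untreated arrays, so their values are given side by side and not set against each other as independent. With equal array medians 5 genes were higher and 15 lower, where 8148 of the 15587 genes tested were called, 49.1% of them higher. The 7 lower calls became 4 without untreated replicate 1, without combination replicate 2 or without combination replicate 3.

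Between the combination and CHR-3996 alone, 0 of the 36 genes were called higher and 0 lower by limma, where 0.0577% and 0.0% of all genes were. The lowest adjusted p was 0.259, that of HSP90B1 at 0.44, and 7 genes had an unadjusted p under 0.05. The log2 fold changes of the 36 genes had a median of 0.12, against 0.07 over all genes. All 12 chaperones had values of 0.01 or above, up to 0.44, with a median of 0.20. A value that misses the threshold does not show that the samples were alike.

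Between the combination and tosedostat alone, 6 genes were called higher and 8 lower, where 30.4% and 15.8% of all genes were. The 6 higher genes were ERO1B (0.98), EIF2AK3 (0.70), OS9 (0.58), ATF6 (0.51), CREB3L2 (0.47) and DNAJC3 (0.41). The lower genes were FKBP11 (-1.35), DERL2 (-1.08), SDF2L1 (-0.86), HYOU1 (-0.69), CRELD2 (-0.55), SSR1 (-0.48), MANF (-0.45) and DNAJB11 (-0.33). With equal array medians 2 were higher and 21 lower, where 7509 of the 15587 genes tested were called, 44.5% of them higher. With the replicate number as a block 6 and 8 genes were called, DNAJB11 losing its call and DERL3 gaining one. ERN1 and PPP1R15A, at -0.05 (adjusted p = 0.823 from limma) and 0.13 (adjusted p = 0.437), were not called here, and their samples overlapped between these groups.

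The interaction term asks whether the change with both compounds differs from the sum of the changes with each one on the log2 scale. By limma 0 of the 36 genes were called higher and 0 lower, where 0.0321% and 0.244% of all genes were, and 5 had an unadjusted p under 0.05: ERO1B, PPP1R15A, ERN1, HERPUD1 and EDEM1. The lowest adjusted p was that of ERO1B, whose interaction of -0.97 (standard error 0.17) had an adjusted p of 0.0515 and was called once untreated replicate 1 was left out. With quantile normalisation ERN1 was called instead, at -0.88. The interaction was -0.81 (adjusted p = 0.212) for ERN1, -0.67 (adjusted p = 0.191) for PPP1R15A, -0.51 (adjusted p = 0.444) for EDEM1 and -0.42 (adjusted p = 0.333) for HERPUD1. Other probe sets gave other sizes, none called. The equally bright one of ERN1 gave -0.18 (adjusted p = 0.92 by limma) and its dimmer one -0.13. Those of ERO1B, PPP1R15A and HERPUD1 gave -0.42 (adjusted p = 0.727), -1.03 (adjusted p = 0.106) and -1.73 (adjusted p = 0.263).

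Other genes of the same pathway were counted from 5 lists of 115 genes, of which 109 had a tested probe set. Each gene stands here by its brightest tested probe set alone, and its other probe sets are not given. Of 18 further transcription factors, proteases and kinases of the stress response, 10 were called higher and 2 lower with CHR-3996, 4 and 0 with tosedostat, and 10 and 2 with the combination. With equal array medians the counts with CHR-3996 were 6 and 3, where 8040 of the 15587 genes tested were called, 46.7% of them higher. Over all genes, 31.7% were higher and 18.0% lower with CHR-3996, 4.25% and 0.545% with tosedostat, and 34.6% and 15.9% with the combination. The gene with the largest rise in each was DDIT3, which encodes the transcription factor CHOP. Its values were 7.18, 6.91 and 6.83 in untreated cells, 10.41, 10.89 and 10.80 with CHR-3996, 9.04, 9.14 and 8.81 with tosedostat, and 10.53, 10.49 and 10.06 with the combination. It rose by 3.73 (adjusted p = 1.39e-07 from limma), 2.02 (adjusted p = 0.000194) and 3.39 (adjusted p = 1.92e-07), with no overlap between untreated, tosedostat and the other samples. XBP1, TRIB3 and VCP are named here after their values were seen. XBP1, whose messenger RNA IRE1 splices, was called lower with CHR-3996 at -0.41 (adjusted p = 0.04 by limma). Its value with the combination was -0.29 (adjusted p = 0.125), and its splicing was not measured. The largest fall with CHR-3996 was that of EIF2S1, which encodes the translation factor that PERK phosphorylates, at -0.66 (adjusted p = 0.0013).

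Of 23 further folding enzymes and chaperones measured, 10 (43.5%) were called higher and 4 (17.4%) lower with CHR-3996, against 31.7% and 18.0% of all genes, with QSOX1, a sulfhydryl oxidase, highest at 1.93 (adjusted p = 3.24e-07 from limma) and DNAJB12, a membrane co-chaperone, lowest at -1.04 (adjusted p = 0.00847). With equal array medians these counts were 7 and 7. For this list and those below, the equal-median counts stand beside 8040 calls among all 15587 genes, 46.7% of them higher. Of 22 further translocon, signal peptidase and signal recognition particle genes, 3 (13.6%) were higher and 10 (45.5%) lower, and 1 and 18 with equal medians, with SEC61A2 at 1.03 (adjusted p = 0.000115) and SRPRB, a subunit of the particle's receptor, at -0.97 (adjusted p = 0.000166). Of 22 oligosaccharyltransferase and glycan trimming genes, 6 (27.3%) were higher and 10 (45.5%) lower, and 0 and 11 with equal medians, with TUSC3 at 0.89 (adjusted p = 0.0413) and ALG3, a mannosyltransferase, at -1.08 (adjusted p = 6.87e-05). Of 24 further ER degradation genes, 8 (33.3%) were higher and 5 (20.8%) lower, shares near those of all genes, with FAM8A1, a partner of the SYVN1 ligase, at 1.86 (adjusted p = 8.13e-07) and AUP1 at -0.97 (adjusted p = 0.000113). With equal medians this last list had 3 higher and 9 lower.

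With tosedostat, the first of these lists held DDIT3, TRIB3, CREB3 and ATF6B as higher, the further degradation list held RNF185 at 0.63 (adjusted p = 0.00781 from limma) and VCP at 0.47 (adjusted p = 0.0318) as higher, and the other 3 lists had 0 calls by limma. VCP, the ATPase that pulls proteins out of the ER membrane, was called lower with CHR-3996 at -0.49 (adjusted p = 0.00245), and its value with the combination was 0.07 (adjusted p = 0.651). TRIB3, a target of CHOP, rose by 1.33 (adjusted p = 0.017) with tosedostat and by 0.71 (adjusted p = 0.04) with CHR-3996, and its value with the combination was 0.34 (adjusted p = 0.312).

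The genes with ERSE or ERSE-II in a window were found among all 3 outcomes with CHR-3996. HSP90B1, CALR and CRELD2 with ERSE and SDF2L1 and HYOU1 with ERSE-II were called lower, HSPA5, CANX and PDIA6 were not called by the probe set that stands for each, and ERO1B and HERPUD1 were called higher. Over all genes tested, 31.7% were called higher and 18.0% lower with CHR-3996. Both genes with a TGACGTCA match, CREB3L2 and PPP1R15A, were called higher, and so were both with TGATGNAAN, CREB3L2 and HERPUD1. Of the genes with TGACGTGG, HYOU1 was called lower and TXNDC5 had no probe set of its own. These are descriptions of a few windows, and no match says only that these letters are not in this window.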

How the data were processed

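RNA of 12 samples of H929 cells was measured on Affymetrix U133 Plus 2.0 arrays. The authors normalized the arrays in dChip, and the deposited values are log2 expression values per probe set; their range shows the log2 scale, and the sources used here do not give the dChip version, normalization or summary settings. Of 54675 probe sets, 62 controls were removed, and 36395 of the remaining 54613 exceeded the 40th percentile in 3 or more of the 12 samples and were tested.

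The platform annotation gave 1 gene symbol to 29161 of these, several to 1365 and none to 5869. Probe sets with several symbols named no gene, and the brightest probe set with 1 symbol stood for each of 15587 genes. A linear model of 4 groups was fitted with limma 3.58.1 in R 4.3.3 (8 residual degrees of freedom), with 6 contrasts: each treatment against untreated, the combination against each compound, and the interaction (combination minus CHR-3996 minus tosedostat plus untreated). Benjamini-Hochberg adjustment was made within each contrast over all tested probe sets, at a threshold of 0.05. The fitting code was tested on simulated data. Python 3.11.15, pandas 2.3.3 and matplotlib 3.10.9 were used for summaries and plots, and promoter windows came from RefSeq (GRCh38.p14).

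The 39 genes, the pathway lists and the alternatives were chosen with earlier results of these data known. Of the 39 genes, values of every sample are given for sensors and signalling genes. They are also given for those called in any contrast with a log2 fold change of at least 1 in size. Sample values of HSPA5, HERPUD1, DDIT3 and the second probe set of DERL3 were printed outside this rule. Of the pathway lists, the called genes with the highest and lowest change are named. The alternatives were 2 other scalings (quantile normalisation and equal array medians), the 60th percentile or none in the filter, a block for the replicate number, robust estimation with a variance trend, a fit to only the groups compared, the mean of a gene's probe sets, the brightest probe set without _x_at and _s_at, and each array left out in turn. Deviations of same-numbered samples from their group means correlated above 0.1 in all 3 pairs for 4 of 6 pairs of groups: untreated and tosedostat, CHR-3996 and tosedostat, CHR-3996 and the combination, and tosedostat and the combination (0.116 to 0.288). It did not between untreated and CHR-3996 (0.0358 to 0.120) or, in 1 pair of samples, between untreated and the combination (0.0981 to 0.168). Same-numbered samples were each other's best match in every pair of groups, except replicate 3 of untreated and CHR-3996. The labels do not say what a number shares, and the main fit has no term for it.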

Additional observations from a re-analysis of the deposited data

Results flagged for a closer look

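The change of DDIT3 with both compounds was smaller than the sum of its changes with each, on the log2 scale. The interaction was -2.36 (standard error 0.25, adjusted p = 0.00538 from limma), and DDIT3 was the one gene of the 5 pathway lists called in that contrast. Its mean rose by 3.73 with CHR-3996, by 2.02 with tosedostat and by 3.39 with the combination, and the CHR-3996 and combination samples overlapped.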

How the results depend on the processing

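Counts are of the 36 genes by limma, and the cause of each shift was not tested. With equal array medians the calls were 6 higher and 18 lower with CHR-3996, 5 and 15 with the combination, and 2 and 21 for the combination against tosedostat. Of all 15587 genes, 8040, 8148 and 7509 were called in these contrasts with that scaling, 46.7%, 49.1% and 44.5% of them higher. Quantile normalisation gave 11 lower with the combination and 6 higher with tosedostat. It called 8721 and 802 of all genes there, 48.6% and 78.3% of them higher. For tosedostat the 3 higher calls became 5 with the 60th percentile filter, 6 with a variance trend and robust estimation, and 1 with the arrays of the compared groups alone. Without probe sets ending in _x_at or _s_at, 7 of the 30 genes left were lower with CHR-3996. The interaction had 1 lower call with quantile normalisation (ERN1), and 1 with equal array medians, the 60th percentile filter, the variance trend and the replicate block (ERO1B each time). Leaving out 1 array at a time gave 8 to 12 higher and 9 to 11 lower with CHR-3996, 1 to 5 higher with tosedostat, 9 to 11 higher and 4 to 8 lower with the combination, 4 to 6 higher and 6 to 10 lower against tosedostat, and 0 to 1 lower in the interaction, the 1 without untreated replicate 1. With the replicate block there were 12 higher and 12 lower with CHR-3996 (UGGT1 and DERL3 gained), 4 higher with tosedostat (ERN1 gained), and 13 higher and 9 lower with the combination (UGGT1, SEL1L, PDIA4 and DERL3 gained). Directions turned for HSPA5 with the mean of its probe sets, to 0.55 with CHR-3996, 0.51 with the combination and 0.51 for the combination against tosedostat, and for SSR1 without _x_at and _s_at probe sets, to 0.22, 0.07 and 0.18. Another 170 changes of sign were of values called in neither the main setting nor the alternative, counted apart for each gene, contrast and setting.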
